A study of Homo sapiens with 12 samples.

Results

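The nuclear pore complex genes are 30 genes that encode the proteins of the pore through which molecules pass between the nucleus and the cytoplasm. They were taken by gene name and not by a rule on measured values, but with earlier results of these data known. Probes that stand for a single gene covered all 30 among the 19777 genes of the AFFX arrays and 27 among the 17192 genes of the ABI arrays. Those 27 were among the 16186 genes measured on both platforms, and the series holds 20783 genes in all. NUP43, NUP58 and RANBP2 had no single-gene ABI probe.

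The nuclear pore is built from many copies of each protein, the nucleoporins. Scaffold proteins form an outer ring on each face of the envelope (the Y complex) and an inner ring between them, and membrane proteins hold both in place. Nucleoporins with repeats of phenylalanine and glycine (FG) fill the channel and reach into the cytoplasm and the nucleus, where they bind the import and export receptors, whose direction of transport is set by the GTPase Ran.

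A2780 is a long-established line of human ovarian carcinoma cells. Control cells were left untreated, and treated cells received 3 µM of an unnamed cell cycle inhibitor for 6 hours; the line is the same in both groups, and only cells still attached were collected. RNA from 3 cultures per condition was pooled, and each pool was divided over 3 AFFX arrays (Affymetrix HGU133plus2) and 3 ABI arrays (Human Genome Survey Microarray), which gives 12 arrays. The arrays of a group are therefore technical replicates, and each p-value measures the spread between arrays and compares 1 treated pool with 1 control pool.

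Signals are given on the log2 scale, and log2(Fold Change) is the treated mean minus the control mean. Array medians over all probes lay between 5.37 and 5.47 on AFFX (log2) and between 1.06 and 1.19 on ABI (linear units). The median SD between the arrays of a group was 0.09 to 0.10 on both platforms over the probes kept for the pore genes. Over all probes, kept or not, it was 0.10 to 0.11 on AFFX and 0.26 to 0.30 on ABI. Where a gene had several probes, the one of lowest p was kept, so these sets of probes are not alike. Levels of different probes cannot be set against each other, so the markers of epithelial and other cells were read only for change, and the cell type on the label was not checked by level. None of the 7 leukocyte markers measured passed the limits for a call on either platform. No epithelial marker was called on AFFX, whereas on ABI KRT18 fell (-0.87) and MUC16 rose (1.16). Of 8 measured fibroblast or endothelial markers, COL1A2 (-1.74) and COL3A1 (-1.79) fell on AFFX, where ABI gave 0.26 and 0.21, and COL1A1 rose on ABI (1.13); the part of such cells in the results was not tested. The 18 AFFX hybridisation control probe sets, which read bacterial transcripts added to each sample, had a median signal 0.52 higher on the treated arrays. The study added these transcripts at the cRNA level, before hybridisation, and took a set amount of RNA for each labelling reaction. Signals are relative to all RNA on an array. Neither the signals nor the controls can therefore show cell number or RNA per cell, and the cause of the shift was not tested.

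Transcripts of 9 pore genes fell on AFFX and none rose. On ABI, 9 fell and 1 rose. With the probe kept for each gene, the falls were largest for NUP153 of the nuclear basket and AHCTF1 of the outer ring on AFFX, and for NUP153 and NUP42 on ABI. For NUP153 the control level exceeded the treated level 3.77-fold on AFFX and 3.42-fold on ABI. A gene was called where limma gave a Benjamini-Hochberg adjusted p under 0.05 and the change was at least 1.5-fold. The share of all genes called lower was 14.2% on AFFX and 14.8% on ABI, against 30% and 33.3% of the pore genes, and the share called higher was 2.49% on AFFX and 6.31% on ABI. All genes here include dim ones and, on ABI, probes with a wider spread than the pore genes. Shares among genes of like signal and spread were not taken. When arrays were centred on ribosomal protein genes, which lowered the median of all genes by 0.34 on AFFX and 0.63 on ABI, 13 pore genes fell on AFFX (19.8% of all genes) and 17 on ABI (28.6%), and none rose. Centring AFFX arrays on the hybridisation controls lowered that median by 0.62, and 23 pore genes fell (33.0% of all genes) and none rose. The median log2(Fold Change) of the pore genes was -0.24 on AFFX, beside 0.16 over all genes, and -0.46 on ABI, beside 0.09 over all genes.

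The genes that fell on both platforms numbered 6 and were NUP153, NUP62, NUP98, NUP42, AHCTF1 and NUP54. They are 22.2% of the 27 pore genes measured on both, and 10.5% of all shared genes fell on both platforms. No pore gene rose on both, where 0.42% of shared genes did, and none was called in opposite directions, where 0.352% were. The remaining calls were made on 1 platform. NUP50 on AFFX and NUP85, NUP35, POM121 and NUP210 on ABI are measured on both platforms, and NUP58 and RANBP2 were measured as single genes on AFFX alone.

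**Figure D1:**
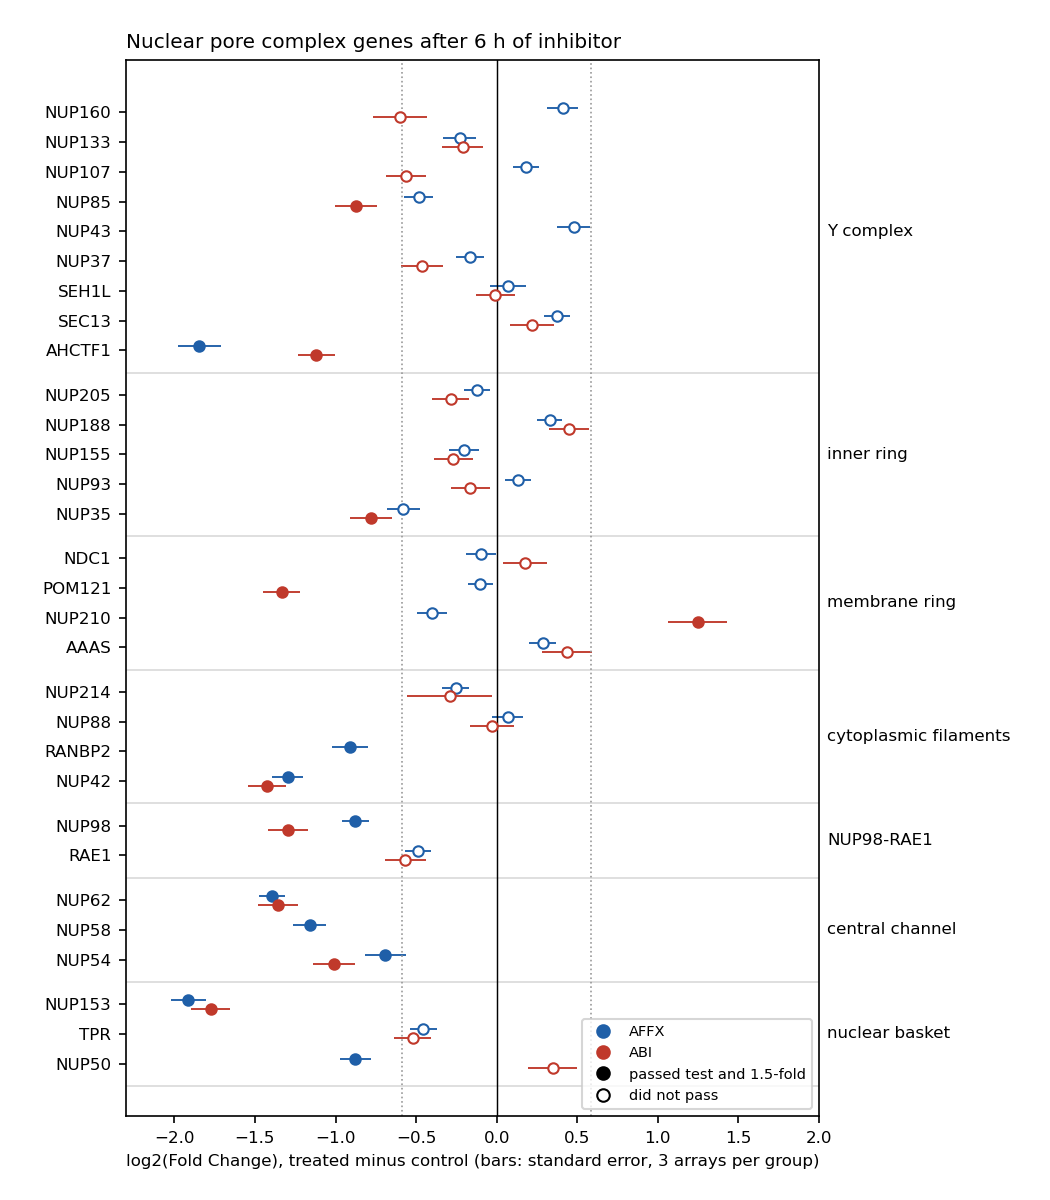
The log2(Fold Change) of each pore gene (treated minus control, horizontal axis, with its standard error from limma over 3 arrays per group) is plotted by place in the pore for AFFX and ABI. Filled points passed the adjusted p and the 1.5-fold limit, which dotted lines mark; the filled points of the central channel and of NUP153, NUP98, NUP42 and AHCTF1 lie left of the limit on every platform that measured them, while most scaffold genes lie between the lines.

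Proteins of the central channel, NUP62, NUP58 and NUP54, bind each other and fill the pore with FG repeats. All 3 genes fell on AFFX and both measured genes fell on ABI. NUP62 signals were 9.94, 9.89 and 9.98 in the AFFX control arrays and 8.60, 8.49 and 8.53 in the treated arrays. On ABI they were 5.78, 5.79 and 5.67 in control and 4.50, 4.31 and 4.36 in treated arrays. Treated arrays lay more than a full log2 unit below the controls on both platforms, with no overlap. The log2(Fold Change) was -1.39 ± 0.08 (SE over 3 arrays per group; limma adjusted p = 2.64e-07) on AFFX and -1.36 ± 0.12 (SE; limma adjusted p = 0.00204) on ABI. A second AFFX probe set of NUP62 gave -0.76 and also passed, while the remaining set, at a control signal of 4.27, gave 0.06.

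NUP54 signals on AFFX were 9.60, 9.60 and 9.37 in control and 8.78, 9.10 and 8.62 in treated arrays. The groups did not overlap, but the second treated array stood closer to the controls than the other two. ABI signals of NUP54 were 5.72, 5.76 and 5.70 in control and 4.84, 4.57 and 4.75 in treated arrays. The log2(Fold Change) was -0.69 ± 0.12 (limma adjusted p = 0.00157) on AFFX and -1.01 ± 0.13 (limma adjusted p = 0.00603) on ABI. The AFFX call was lost with the methods' t-test (adjusted p = 0.0536) and without treated replicate 3, where the change was -0.58.

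NUP58 had 4 AFFX probe sets that did not move together. The set kept for the gene fell from 5.53, 5.46 and 5.24 to 4.30, 4.34 and 4.09, a change of -1.16 ± 0.10 (limma adjusted p = 8.56e-06). A second set fell by 0.97 on the log2 scale, whereas of the remaining sets 1 rose by 1.14 and 1 gave 0.46. The direction of the NUP58 change thus differed between probe sets of the same arrays, and with the set of highest mean signal it was an increase of 1.14.

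NUP98 carries GLFG repeats and binds RAE1, its partner in mRNA export. AFFX signals of NUP98 were 9.07, 8.93 and 8.96 in control and 8.14, 8.15 and 8.05 in treated arrays. Its ABI signals were 4.53, 4.42 and 4.45 in control and 3.28, 3.05 and 3.17 in treated arrays. With the probes kept, no treated array reached the lowest control on either platform. NUP98 fell by 0.88 on the log2 scale on AFFX (SE 0.08, limma adjusted p = 1.28e-05) and by 1.29 on ABI (SE 0.13, limma adjusted p = 0.00249). The NUP98 gene also encodes NUP96, a Y complex protein, and is not counted among the Y complex genes here. Its 3 AFFX sets gave -0.88, -0.74 and -0.03. A second ABI probe of NUP98, at a mean control signal of 2.11, gave -0.22 with overlapping groups (limma adjusted p = 0.568). RAE1 did not pass the fold limit, at -0.49 on AFFX and -0.57 on ABI, although both adjusted p-values were low (0.000805 and 0.0321, limma). Another AFFX set of RAE1 gave -0.56. The remaining set, at a control signal of 5.25, went the other way, at 0.51 (limma adjusted p = 0.00586).

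The nuclear basket reaches into the nucleus and is made of NUP153, TPR and NUP50. NUP153 recruits import receptors and NUP50 to the basket. With the probes kept, it had the largest fall of all pore genes on both platforms. AFFX signals were 10.12, 10.03 and 9.87 in control arrays and 8.15, 8.23 and 7.89 in treated arrays. ABI signals were 6.07, 6.02 and 6.21 and 4.30, 4.30 and 4.36 in the same order. The groups stood well apart, and the spread within them was small, with an SD of 0.04 among the treated ABI arrays. The log2(Fold Change) of NUP153 was -1.91 ± 0.11 (SE; limma adjusted p = 2.32e-07) on AFFX and -1.78 ± 0.12 (limma adjusted p = 0.000955) on ABI. Its other AFFX sets, at control signals of 5.44 and 3.36, gave -0.38 and -0.09.

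TPR, which forms the filaments of the basket, was lower by less than 1.5-fold on both platforms with the probes kept, at -0.46 ± 0.09 on AFFX (limma adjusted p = 0.00197) and -0.52 ± 0.12 on ABI (limma adjusted p = 0.0324). All treated arrays of TPR lay below all controls on both. Its 5 AFFX sets ranged from -0.65 to -0.17, and the set at -0.65, not the one kept, passed the test and the fold limit (limma adjusted p = 0.00475). NUP50, a mobile cofactor of import, fell on AFFX from 8.12, 8.24 and 8.08 to 7.36, 7.34 and 7.12 (-0.88 ± 0.10, limma adjusted p = 3.82e-05). On ABI it was 1.40, 1.19 and 1.52 in control and 1.70, 1.86 and 1.59 in treated arrays (0.35 ± 0.15, limma adjusted p = 0.168). The 6 AFFX sets of NUP50 ranged from -0.88 to 0.44, and only the set kept for the gene passed the test and the fold limit. Without AFFX control replicate 2 or treated replicate 2, another set was chosen and the NUP50 change became 0.43 or 0.49.

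The cytoplasmic filaments carry mRNA release and the last steps of export. NUP42, which helps the helicase DDX19 at the pore through GLE1, fell on both platforms. On AFFX it gave 7.60, 7.53 and 7.43 in control and 6.15, 6.38 and 6.15 in treated arrays. On ABI the values were 4.54, 4.47 and 4.59 and 3.05, 3.20 and 3.08. Every treated array was below every control by more than 1 log2 unit. The change of NUP42 was -1.30 ± 0.09 on AFFX (limma adjusted p = 1.54e-06) and -1.42 ± 0.12 on ABI (limma adjusted p = 0.00159), and each platform had 1 probe for it.

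RANBP2, the large Ran-binding filament protein and SUMO ligase, fell on AFFX from 8.02, 7.80 and 7.57 to 6.94, 6.86 and 6.86 (-0.91 ± 0.11, limma adjusted p = 9.81e-05). A second of its 4 AFFX sets also fell, by 0.82 on the log2 scale, and the remaining sets gave -0.31 and -0.35. RANBP2 is nearly identical to the RGPD genes over much of its length, and probes may read both. Of the ABI probes annotated to RANBP2, RGPD4 and RGPD5 together, 1 fell by 0.85 on the log2 scale (limma adjusted p = 0.0169), and the other, at a control signal of -1.10, gave -0.58 with overlapping groups (limma adjusted p = 0.563). NUP214, which holds the export platform, gave -0.26 on AFFX and -0.29 on ABI, where its control signals of 0.61, 0.75 and 0.01 overlapped the treated signals. NUP88, the partner of NUP214, gave 0.07 and -0.03, with overlapping groups on both.

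Y complex genes encode the outer scaffold, and most did not pass. Of the 9 genes listed for it on AFFX only AHCTF1 fell, and of 8 on ABI AHCTF1 and NUP85. AHCTF1 encodes ELYS, which binds chromatin and starts pore assembly after mitosis. Its AFFX signals were 9.04, 8.80 and 8.74 in control and 7.19, 7.16 and 6.71 in treated arrays. Its ABI signals were 6.08, 6.01 and 6.13 in control and 5.02, 4.88 and 4.95 in treated arrays. No group overlapped, although the third treated AFFX array was lower than the other two. AHCTF1 changed by -1.85 ± 0.13 on AFFX, a 3.59-fold fall (limma adjusted p = 1.48e-06), and by -1.12 ± 0.12 on ABI, a 2.17-fold fall (limma adjusted p = 0.0031). A second AFFX set gave -1.33, and a second ABI probe, with a mean control signal of 0.14, rose by 0.87. With the mean of all probes the ABI change of AHCTF1 was -0.13 and did not pass.

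NUP85 gave 5.43, 5.43 and 5.23 in control and 4.48, 4.59 and 4.39 in treated ABI arrays (-0.87 ± 0.13, limma adjusted p = 0.00986). On AFFX its change was -0.48 ± 0.09 (limma adjusted p = 0.00197), short of 1.5-fold, with treated arrays below controls. Both platforms thus had NUP85 in the same direction. The other Y complex genes ran from -0.23 (NUP133) to 0.48 (NUP43) on AFFX and from -0.60 (NUP160) to 0.22 (SEC13) on ABI. Among them NUP160, NUP43 and SEC13 on AFFX had adjusted p-values under the threshold and changes of 0.41, 0.48 and 0.37. NUP107 on ABI was also under the threshold, at -0.56 (limma adjusted p = 0.0304), and gave 0.18 on AFFX. Another ABI probe of NUP107, with a control signal of 5.68 beside 2.65 for the one kept, gave 0.06 (limma adjusted p = 0.776). The other NUP160 sets gave -0.36 and -0.13, so its direction turned with the choice of probe. With arrays centred on the hybridisation controls the other NUP43 set was chosen, which gave 0.20 before centring, and the change was -0.32. NUP37, a small scaffold protein, gave -0.17 on AFFX and -0.46 on ABI (limma adjusted p = 0.0592), with treated arrays below controls on both. SEC13, which also serves in the coat of secretory vesicles, was higher on every treated array of both platforms, but its sign turned with other centrings, to -0.15 on AFFX (hybridisation controls) and -0.34 on ABI (ribosomal protein genes). SEH1L, shared with the GATOR complex of nutrient signalling, had overlapping groups on both.

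Inner ring genes form the scaffold around the channel. None of 5 passed on AFFX, and on ABI only NUP35 fell, from 5.54, 5.33 and 5.42 to 4.59, 4.60 and 4.76 (-0.78 ± 0.13, limma adjusted p = 0.0137). NUP35, also called NUP53, links the ring to the membrane. Its AFFX change, -0.58 ± 0.10 (limma adjusted p = 0.0014), missed the 1.5-fold limit by a small margin, and every treated array lay below every control. The ABI call was lost without control replicate 3 or treated replicate 2, with changes of -0.78 and -0.75. NUP205, NUP155 and NUP93, the large scaffold proteins, lay between -0.29 and 0.13 on both platforms and had 95% intervals within 1.5-fold. NUP188, the paralogue of NUP205, gave 0.33 on AFFX and 0.45 on ABI, with every treated array above every control for the probes kept. Another of its 3 AFFX sets was called lower, at -0.61 (limma adjusted p = 0.000753), and the remaining set gave 0.19. With arrays centred on ribosomal protein genes another NUP188 probe was chosen on each platform, and the change was -0.85 on AFFX and -0.35 on ABI. Before centring these probes gave -0.61 and 0.21.

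Membrane ring genes anchor the pore in the envelope. None of 4 passed on AFFX, and on ABI 1 fell and 1 rose. POM121 on ABI was 6.60, 6.50 and 6.58 in control and 5.19, 5.20 and 5.29 in treated arrays, a clear separation (-1.33 ± 0.12, limma adjusted p = 0.00174). Its single-gene AFFX set was nearly level, at 6.29, 6.26 and 6.32 in control and 6.15, 6.18 and 6.24 in treated arrays (-0.10 ± 0.08, limma adjusted p = 0.324). POM121 has a near-identical copy, POM121C, and the AFFX set annotated to both fell by 1.24 on the log2 scale (limma adjusted p = 1.02e-06). Whether the ABI probe reads 1 or both copies was not tested.

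NUP210 was the only pore gene that rose. On ABI it went from 3.62, 3.38 and 3.86 to 4.69, 5.05 and 4.86 (1.25 ± 0.18, limma adjusted p = 0.00916). The 5 AFFX sets of NUP210 gave -0.40 to 0.44, and none passed. The ABI call was lost when arrays were centred on ribosomal protein genes, where the change was 0.68. NDC1, which spans the membrane, gave -0.10 on AFFX and 0.17 on ABI, with overlapping groups. AAAS, which NDC1 anchors to the pore, gave 0.29 and 0.44, with treated arrays above controls on both platforms, but its sign turned to -0.24 on AFFX with arrays centred on the hybridisation controls and to -0.13 on ABI with ribosomal protein genes.

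**Figure D2:**
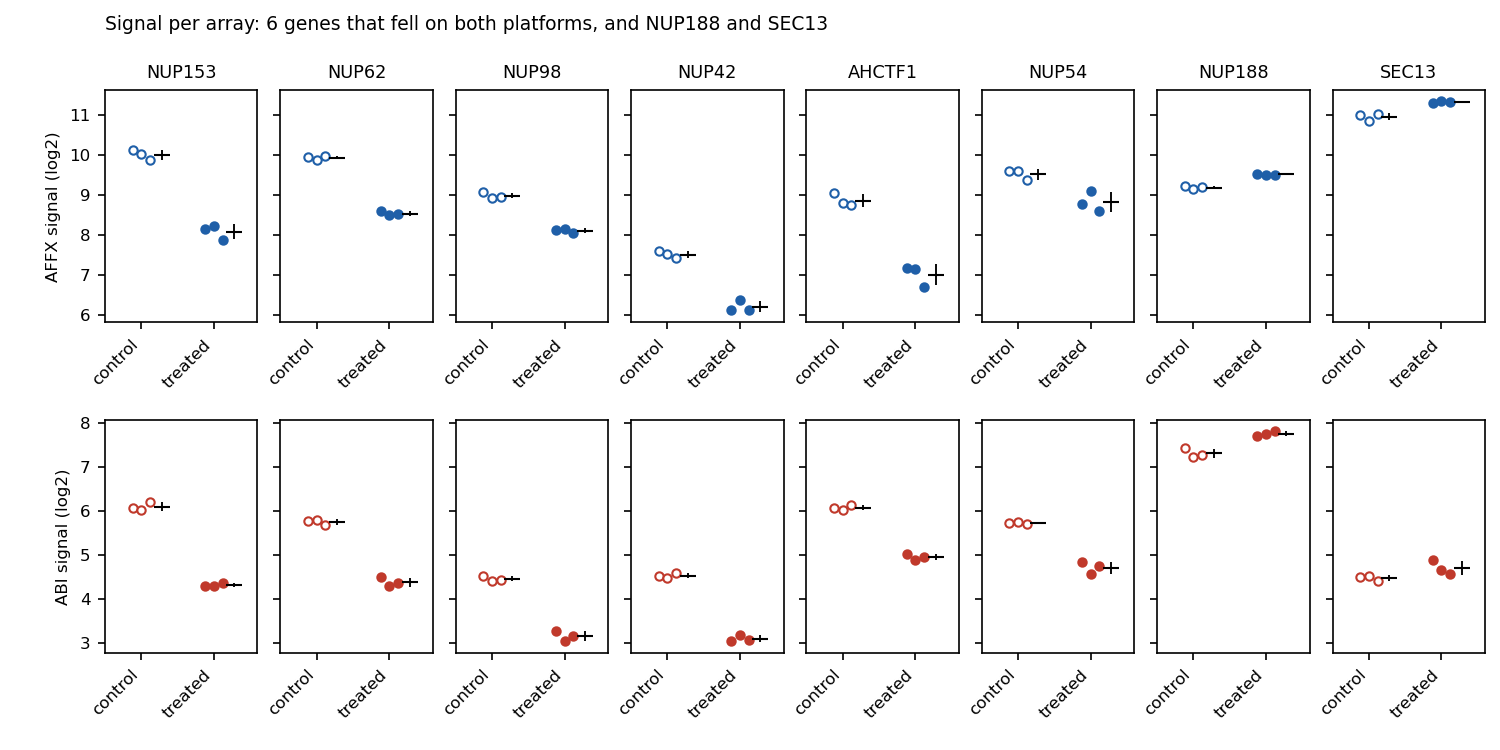
Each point is the signal (log2) of 1 array for the 6 genes that fell on both platforms and for NUP188 and SEC13; horizontal bars with vertical lines are the mean ± SD of 3 arrays, AFFX above and ABI below. Treated arrays lie below all control arrays for the first 6 genes on both platforms, and above them for NUP188 and SEC13, whose changes did not pass and turned negative on AFFX when arrays were centred on the hybridisation controls. For NUP188 another set was chosen under that centring.

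Direction was also read from the arrays alone, without a fold limit. On AFFX, every treated array lay below every control for 19 of 30 pore genes and above for 7, where 24.1% and 45.2% of all genes did so. On ABI the numbers were 18 and 5 of 27, where 23.9% and 23.1% of all genes did so. With the adjusted p alone and no fold limit, 15 pore genes were lower and 5 higher on AFFX, against 21.8% and 33.1% of all genes, and 12 were lower and 1 higher on ABI, against 15.8% and 8.41%. Among genes not called, the 95% interval of the change lay within 1.5-fold for 14 of 21 on AFFX and 8 of 17 on ABI. The rest of the uncalled genes may have changed by more than that limit.

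Single probes gave a mixed picture. Of 74 AFFX probe sets for pore genes, 16 fell, 1 rose and 57 were not called, where 10.4% of all single-gene sets fell and 1.71% rose. Of 34 ABI probes, 9 fell, 2 rose and 23 were not called, against 13.1% and 5.62%. Several sets were available for 22 genes on AFFX and several probes for 6 on ABI. For a gene with several, the one with the lowest p in a t-test was kept, and the same arrays served this choice and the test, so the values lean away from 0. With the mean of all probes in its place, 5 pore genes fell on AFFX (16.7%, beside 9.15% of all genes) and 3 fell on both platforms (11.1%, beside 7.59% of shared genes).

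**Figure D3:**
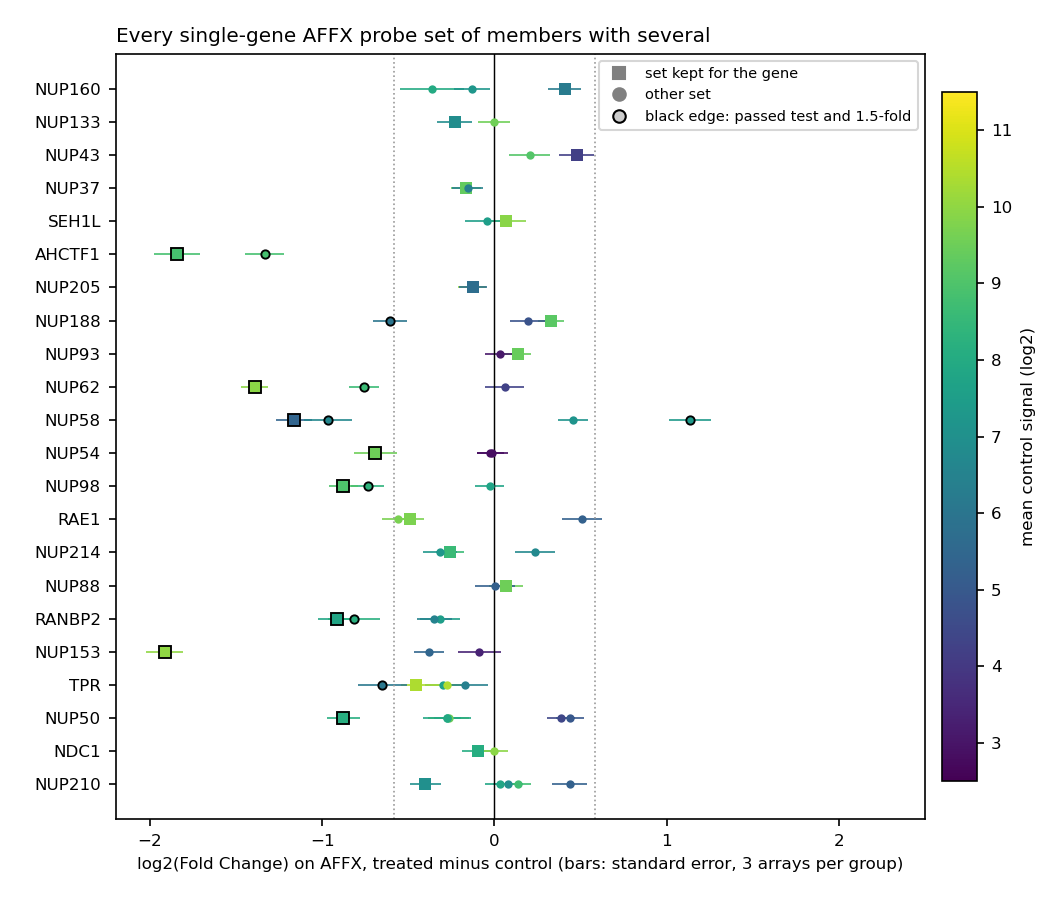
Every single-gene AFFX probe set of the 22 pore genes with several is drawn at its log2(Fold Change) (treated minus control, with the standard error), coloured by its mean control signal; squares are the sets kept for the gene and black edges mark sets that passed the adjusted p and the 1.5-fold limit. The sets of AHCTF1 and RANBP2 all lie left of 0, while those of NUP58 lie on both sides, from -1.16 to 1.14.

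Platforms were then compared directly. The change differed between AFFX and ABI for 7 of the 27 shared pore genes by the limma interaction, against 15.1% of shared genes. Those with a smaller fall or a rise on ABI were AHCTF1 (0.73 for ABI minus AFFX, adjusted p = 0.0293, limma), NUP50 (1.22, adjusted p = 0.0011) and NUP210 (1.65, adjusted p = 0.000458). Those lower on ABI were POM121 (-1.23, limma adjusted p = 6.75e-05), NUP160 (-1.01, adjusted p = 0.00574), NUP107 (-0.74, adjusted p = 0.00215) and NUP98 (-0.42, adjusted p = 0.0456). With the probe of highest mean signal kept instead, POM121 and NUP210 passed, against 11.7% of shared genes. NUP98 kept the same probes and the same difference under that choice, and its adjusted p moved to 0.0561 (limma). On simulated data this comparison called more unchanged genes than its adjusted p allows, so these adjusted p-values may be too small. For NUP153, NUP62, NUP42 and NUP54, which fell on both platforms, the interaction did not pass, and the differences were 0.14, 0.04, -0.13 and -0.32.

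The steps by which the study joined the platforms were applied as a description. Of the 27 shared pore genes, 9 had an interquartile range of 0.4 or more on each platform's 6 arrays, beside 22.2% of shared genes. The integrative correlation, which asks whether a gene relates to all other genes alike on both platforms, was above 0.5 for all 9, beside 83.4% of the shared genes that passed the first step. These 9 are AHCTF1, NUP85, NUP35, NUP62, NUP54, NUP98, RAE1, NUP42 and NUP153.

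Sequence before the gene starts is shown for the genes that fell on both platforms. RefSeq gave a promoter for 28 of the 30 genes, and not for NUP43 and AHCTF1. Each line holds 150 bases upstream of the annotated start, 5′ to 3′ on the gene's strand (GRCh38.p14), and capitals mark matches on either strand to the CCAAT box, to the ETS core CCGGAA, to the GC box GGGCGG, to the E2F-like letters GCGGGAA or to the cyclic AMP response half-site TGACGT. The window is chr6:17706926-17707075 (minus strand) for NUP153, chr19:49929505-49929654 (minus) for NUP62, chr11:3797547-3797696 (minus) for NUP98, chr7:23181898-23182047 (plus) for NUP42 and chr4:76148398-76148547 (minus) for NUP54. For NUP98, where the annotation holds several transcripts, the window begins inside the outermost annotated gene end.
NUP153: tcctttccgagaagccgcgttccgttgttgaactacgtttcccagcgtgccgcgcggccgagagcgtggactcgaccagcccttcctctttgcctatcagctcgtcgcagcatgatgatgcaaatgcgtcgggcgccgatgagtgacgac
NUP62: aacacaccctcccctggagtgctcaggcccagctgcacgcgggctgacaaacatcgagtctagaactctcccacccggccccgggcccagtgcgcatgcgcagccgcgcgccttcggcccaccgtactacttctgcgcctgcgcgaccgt
NUP98: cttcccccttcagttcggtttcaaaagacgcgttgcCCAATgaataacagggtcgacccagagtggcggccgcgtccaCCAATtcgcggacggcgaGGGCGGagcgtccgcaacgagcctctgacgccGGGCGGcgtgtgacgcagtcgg
NUP42: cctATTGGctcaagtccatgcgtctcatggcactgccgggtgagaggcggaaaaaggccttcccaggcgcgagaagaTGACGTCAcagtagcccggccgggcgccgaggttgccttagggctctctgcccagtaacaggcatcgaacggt
NUP54: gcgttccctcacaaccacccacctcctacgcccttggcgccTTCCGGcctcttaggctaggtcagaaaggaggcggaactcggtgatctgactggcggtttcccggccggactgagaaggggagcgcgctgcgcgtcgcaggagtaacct

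The NUP153 and NUP62 windows held none of the 5 motifs. NUP98 had 2 CCAAT boxes and 2 GC boxes, NUP42 an inverted CCAAT box and the palindrome of which both strands match TGACGT, and NUP54 an ETS core on the opposite strand. All windows were rich in G and C, from 60.7% to 68.7%. Over windows of 300 bases around the start, the ETS core was present in 14 of 28 pore genes (50%) and in 20.1% of 27305 genes, and 1 of the 5 genes shown had it. The TGACGT half-site was in 6 (21.4%, beside 9.64%), GCGGGAA in 5 (17.9%, beside 7.82%), CCAAT in 11 (39.3%, beside 39.7%) and GGGCGG in 14 (50%, beside 48.3%). A match is a description of letters and was not tested as a binding site.

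Transport partners of the pore, and genes of the nuclear lamina and envelope, were read from 5 lists. The lists held 67 genes, of which 63 were measured on each platform. On AFFX 7 fell (11.1%, beside 14.2% of all genes) and 1 rose (1.59%, beside 2.49%). On ABI 7 fell (11.1%, beside 14.8%) and 3 rose (4.76%, beside 6.31%). The median changes were 0.12 and 0.08, beside 0.16 and 0.09 over all genes. Exportins had 1 fall of 8 on AFFX and 2 of 8 on ABI, with medians of -0.18 and -0.31. For the Ran cycle 1 of 6 fell on AFFX and 1 of 7 on ABI. In mRNA export 2 of 16 fell on AFFX and 1 of 15 on ABI. Importins and other import receptors had 1 fall of 18 on AFFX, and 1 fall and 1 rise on ABI. Of the nuclear lamina and envelope genes 2 of 15 fell and 1 rose on AFFX, and 2 fell and 2 rose on ABI.

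Of the 61 genes of these lists measured on both platforms, 3 fell on both (4.92%, beside 10.5% of shared genes) and 1 rose on both (1.64%, beside 0.42%). XPO1, the main export receptor for proteins, fell by 1.80 on the log2 scale on AFFX (limma adjusted p = 2.68e-06) and by 0.62 on ABI (limma adjusted p = 0.0287). Its AFFX probe set with the highest signal gave -0.34 and did not pass, and with the mean of all probes its ABI change was -0.25 and not called (limma adjusted p = 0.229). NXT1, the partner of the mRNA export receptor NXF1, fell by 1.22 on AFFX (limma adjusted p = 1.13e-06) and by 1.56 on ABI (limma adjusted p = 0.00185). LEMD3, an inner nuclear membrane protein also called MAN1, fell by 1.73 on AFFX (limma adjusted p = 4.86e-07) and by 2.00 on ABI (limma adjusted p = 0.000832). EMD, which encodes emerin of the inner nuclear membrane, rose by 0.73 on AFFX (limma adjusted p = 9.40e-05) and by 0.63 on ABI (limma adjusted p = 0.0306), and was at 0.49 and 0.07 and not called with arrays centred on ribosomal protein genes, nor on AFFX with the hybridisation controls (0.21). No gene of the Ran cycle or of the import receptors was called alike on both platforms.

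**Figure D4:**
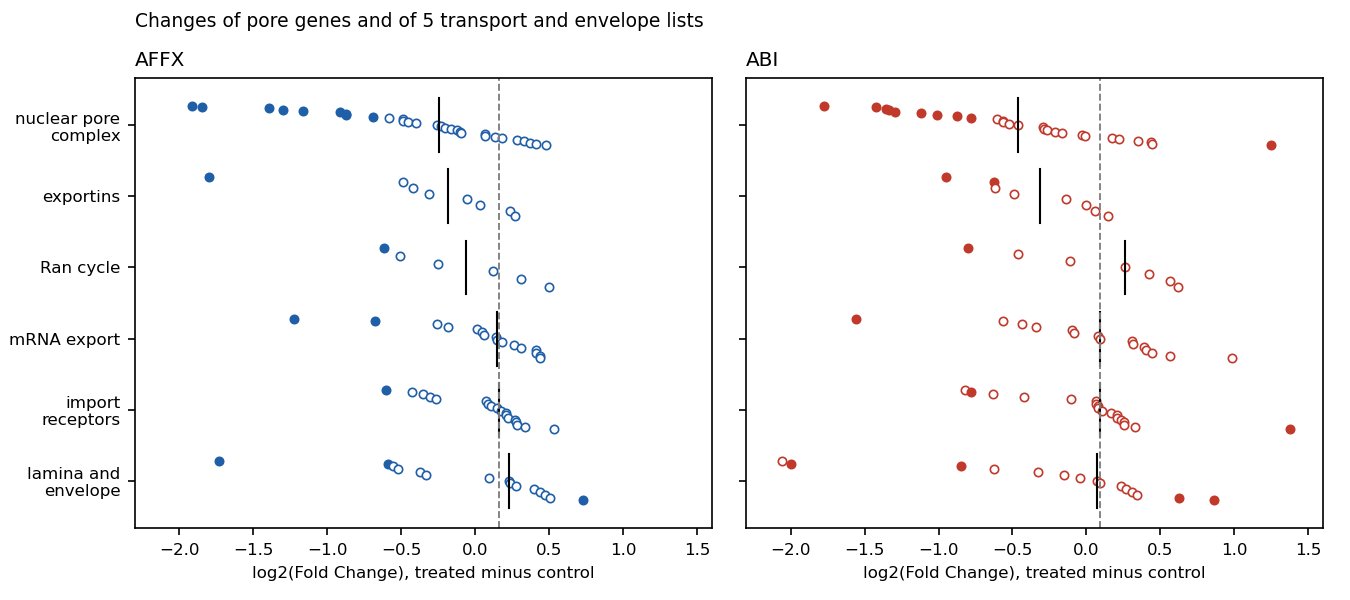
Each point is the log2(Fold Change) of 1 gene (treated minus control) in the pore list and in 5 transport and envelope lists, AFFX left and ABI right; filled points passed the adjusted p and the 1.5-fold limit, short black lines are list medians and the dashed line is the median of all genes. The pore list has the lowest median of the 6 on both platforms, -0.24 on AFFX and -0.46 on ABI.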

How the data were processed

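RNA of A2780 cells, untreated or given the inhibitor, was measured on 6 AFFX and 6 ABI arrays, and samples were grouped by the condition in their titles. The AFFX table as deposited by the authors holds log2 values from RMA with quantile normalization. The deposited ABI table holds chemiluminescence intensities on a linear scale, scaled by the authors to a global median; no detection flags were used, and the RMA version is not given in the sources used here. ABI intensities were turned to log2. Gene names came from the platform annotation and RefSeq (GRCh38.p14), and probes for several genes or none entered the adjustment but no gene count. Where a gene had several probes, the one of lowest p by the methods' t-test was kept. Treated and control were compared per platform with limma 3.58.1 in R 4.3.3, with Benjamini-Hochberg adjustment over 54613 AFFX probe sets (62 controls left out) or 33096 ABI probes, and the platforms by an interaction over shared genes. The fits were tested on simulated data, where the interaction called more unchanged genes than its adjusted p allows.

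The pore genes, the lists and the motifs were chosen with earlier results of these data known. All 30 pore genes are named, and of each other list at most 3 genes called alike on both platforms. Alternatives were other probe choices, scalings, limits and tests, a filter on dim probes, the replicate number as a block and each array left out. The number of arrays limits the precision. The study's quantitative PCR was not analysed here.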

Additional observations from a re-analysis of the deposited data

Results flagged for a closer look

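The change differed between AFFX and ABI for 7 pore genes by the limma interaction (25.9%, beside 15.1% of shared genes), given here as ABI minus AFFX on the log2 scale. NUP210 (1.65) rose on ABI, and none of its AFFX probe sets passed. NUP50 (1.22) fell on AFFX and did not pass on ABI, and AHCTF1 (0.73) fell on both, by less on ABI. POM121 (-1.23) fell on ABI, while its single-gene AFFX set gave -0.10 and the AFFX set shared with POM121C gave -1.24. NUP160 (-1.01) and NUP107 (-0.74) were called on neither platform. NUP98 (-0.42) fell on both, by more on ABI. Where a gene had several probes on a platform, its value rests on the one kept for its low p on the same arrays. POM121 had 1 single-gene probe on each platform. With the probe of highest mean signal 2 of the 7 differences passed, those of POM121 and NUP210. NUP98 kept its probes and its value of -0.42 under that choice, with an adjusted p of 0.0561 (limma). On simulated data the interaction called more unchanged genes than its adjusted p allows. The part of the probes in these differences was not tested further.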

How the results depend on the processing

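The falls of NUP153, NUP62 and NUP42 kept their direction and their call on both platforms under all 15 alternatives run per gene and platform. NUP98 lost its AFFX call and AHCTF1 its ABI call with the mean of all probes, and NUP54 lost its AFFX call there, with the methods' t-test and without AFFX treated replicate 3. With the probe of highest mean signal, 1 pore gene rose on AFFX (NUP58, at 1.14), beside 1.85% of all genes. The ABI median was -0.29, and 2 changes differed between platforms, beside 11.7% of shared genes. With the mean of all probes, 5 genes were called on AFFX, 5 of them lower (9.15% of all genes were), and 3 fell on both platforms (7.59% of shared genes). The medians were -0.13 on AFFX and -0.29 on ABI. Centred on ribosomal protein genes, the medians were -0.48 on AFFX and -1.03 on ABI (all genes -0.18 and -0.54). On ABI 17 genes were called, 17 lower (28.6% of all genes were) and 0 higher (0.442%). On both platforms 10 fell, and the share over all shared genes was not taken. NUP188 on AFFX was -0.85, where another set was chosen. Centred on the hybridisation controls, 23 genes were called on AFFX, 23 lower (33% of all genes were), with a median of -0.86 (all genes -0.46). NUP160 and NUP188 gave -0.89 and -1.13 there, from other sets than those kept. Before centring these sets gave -0.36 and -0.61. Quantile normalization of ABI gave 2 genes higher, beside 8.54% of all genes, and a median of -0.30 (all genes 0.06). Without a fold limit, 20 genes were called on AFFX, 15 lower (21.8% of all genes were) and 5 higher (33.1%), and 10 were called alike on both platforms. With a 2-fold limit, 5 were called on AFFX, 5 lower. The share over all genes was not taken for these calls on both platforms or for the 2-fold limit. Where not shown by the construction, the cause was not tested.

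Leaving out 1 array at a time gave 0 to 1 genes higher on AFFX, AFFX medians of -0.30 to -0.13, and 4 to 7 genes whose change differed between platforms; the highest value and the median of -0.13 came without treated replicate 3, and 4 differing genes without AFFX control replicate 1, control replicate 2 or treated replicate 2. NUP58 on AFFX ran from -1.25 to 1.25 and turned positive without control replicate 1 (0.51) or treated replicate 3, where other sets were chosen. NUP50 on AFFX ran from -0.92 to 0.49, and its ABI minus AFFX difference from -0.14 to 1.30. A replicate number is not known to pair arrays: deviations of same-numbered arrays correlated at 0.07, 0.00403 and 0.33 on AFFX and 0.03, -0.00667 and 0.07 on ABI. Those of differently numbered control and treated arrays correlated at -0.34 to 0.32 on AFFX and -0.06 to 0.03 on ABI. With the replicate block, 7 genes were called on ABI, 7 lower and 0 higher, NUP210, NUP35 and NUP85 losing their calls. The share over all genes was not taken for the block or for arrays left out. The arrays are technical, so culture-to-culture spread is not covered.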

Other observations

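Probes annotated to a pore gene together with other genes entered no count. The AFFX set for AHCTF1 and its pseudogene AHCTF1P1 fell by 1.39 on the log2 scale (limma adjusted p = 1.04e-05), the direction of both single-gene sets. The AFFX set for NUP62 and IL4I1 rose by 0.64 (limma adjusted p = 0.000126), opposite to both single-gene NUP62 sets that fell. An AFFX set for RANBP2 and 7 RGPD genes gave 0.09 with overlapping groups, at a control signal of 3.29.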
